A study of Mus musculus with 7 samples.

Results

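The RING mutant of Mdm2 was examined in mouse embryonic fibroblasts that lack p53. The Mdm2 C462A group comprised 2 libraries from p53-null fibroblasts with a knock-in allele of Mdm2, C462A, that replaces a cysteine of its RING domain with alanine. The comparison group, p53 KO, comprised 3 libraries from p53-null fibroblasts with no change to Mdm2 in their labels. A further group of 2 libraries, labelled p53/Mdm2 KO, is given beside single genes. All 7 libraries came from C57BL/6 cells grown in medium with fetal calf serum, and all are labelled as p53 KO. Genes were members if they separated the groups, that is, if both Mdm2 C462A libraries lay above all 3 p53 KO libraries or both lay below them. Of 29955 genes in the table, 16900 were abundant enough to test, with a mean of at least 10 normalized reads over the 7 libraries, and 4830 of these separated the groups. No label ties the replicates to different embryos or cultures, so the p-values measure only the spread between these libraries, which may be technical in part. Sex-linked genes, given below, differed between libraries within both groups, so not all of that spread is technical.

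Mdm2 is an E3 ubiquitin ligase best known for marking p53 for destruction. Its RING domain, near the carboxyl end, binds zinc, recruits the ubiquitin-conjugating enzyme and pairs with the RING domain of the related protein Mdm4. The cysteine changed in C462A is one of the zinc ligands, and its replacement by alanine is known to abolish ligase activity while the rest of the protein can still be made. Mice with an inactive Mdm2 RING domain die as embryos unless p53 is removed, which is why such cells are studied on a p53-null background. The title of the series places the work on Mdm2 and Polycomb repressive complex 2, the methyltransferase of histone H3 lysine 27.

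Values are normalized reads, recovered from the deposited log2-like values, and are listed for replicates 1, 2 and 3 of p53 KO and then replicates 1 and 2 of Mdm2 C462A. They are not divided by gene length, so levels are compared between libraries and not between genes. The 5 libraries held between 35907280 and 41453822 recovered reads. A count of 0 allows up to 3 reads, which stood for 2.65 to 3.24 normalized reads (counting error only). Differences are Mdm2 C462A minus p53 KO on the deposited log2-like scale, with limma's standard error. The libraries did not group by genotype. Across tested genes, replicate 1 of Mdm2 C462A had a Pearson correlation of 0.951 with replicate 2 of its own group. With replicates 1, 2 and 3 of p53 KO it was 0.910, 0.970 and 0.976, and with replicate 1 of p53/Mdm2 KO 0.988. A pair of libraries stood apart. Replicate 1 of p53 KO had few reads of the fibroblast genes Col1a2 (3456, 369579.6 and 547553 in p53 KO, 382686 and 177303 in Mdm2 C462A) and Thy1 (99.1, 30211 and 30830.4 against 36470.3 and 6592). Not all fibroblast markers were low in that library. Vim (155416, 143854 and 98410 against 85185 and 40846) and S100a4 (37554, 9779 and 10769 against 8828 and 731) were highest there. Replicate 2 of Mdm2 C462A was high for mesothelial genes, among them Upk3b (5096, 275 and 716 against 960.2 and 21602) and Wt1 (1232, 76.1 and 154 against 103 and 2832). The summed level of the 12 epithelial and mesothelial markers was 2615 to 12080.3 in p53 KO and 3322 and 42851 in Mdm2 C462A. The 15 fibroblast markers, all tested, summed to 1015222 to 2144403 and to 1481655 and 1003134. The 11 leukocyte markers summed to 538 to 3156 and to 1444 and 426, and Cd3e was at 0 in all 5 libraries. Libraries of both groups also differed in sex-linked genes: the Y-linked Eif2s3y had 0.909, 1705 and 5.39 in p53 KO and 1.00 and 1929.8 in Mdm2 C462A, and no sex-linked gene separated the groups. For 114 named separating genes the difference was also taken off the log scale, as a ratio between the groups. This ratio changed by over 1.5 times for 16 genes without replicate 1 of p53 KO. It did so for 28 without replicate 2 of Mdm2 C462A and for 41 without both libraries. Without both, the log2-like difference of Phf19 went from -1.52 to -0.31 and that of Rrm2 from -2.02 to -0.94. Gadd45a went from 2.45 to 1.01 and Trib3 from 2.99 to 1.25. Below, a part of such results is given with and without these libraries.

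Genes that separated the groups were nearly as many on each side. In all, 2388 of 16900 tested genes (14.1%) were higher in both Mdm2 C462A libraries than in every p53 KO library, and 2442 (14.4%) were lower. Most differences were small: the median was 0.58 on the higher side and 0.53 on the lower side, and 537 and 495 genes differed by at least 1. A wide gap, at least 1 between the nearest libraries of the groups, was seen for 73 genes (0.432%) on the higher side and 62 (0.367%) on the lower side. By limma with Benjamini-Hochberg adjustment 0 of 16900 genes (0%) passed an adjusted p of 0.05. At an unadjusted p under 0.05, 841 genes (4.98%) were higher and 920 (5.44%) lower. The smallest adjusted p was 0.30, and over the alternative settings its value ran from 0.127 to 0.999. The members below are therefore described by their values, and none is a called change. Replicate 1 of Mdm2 C462A was the nearer to p53 KO for 64.7% of the higher genes and 73.4% of the lower genes. Lower genes were more frequent at high abundance: 24.1% of genes with a mean of 10000 normalized reads or more were lower, against 7.65% of those between 10 and 100. Higher genes ran the other way, at 8.25% and 16.3%. The shares of all tested genes set beside the lists below take no account of level.

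**Figure D1:**
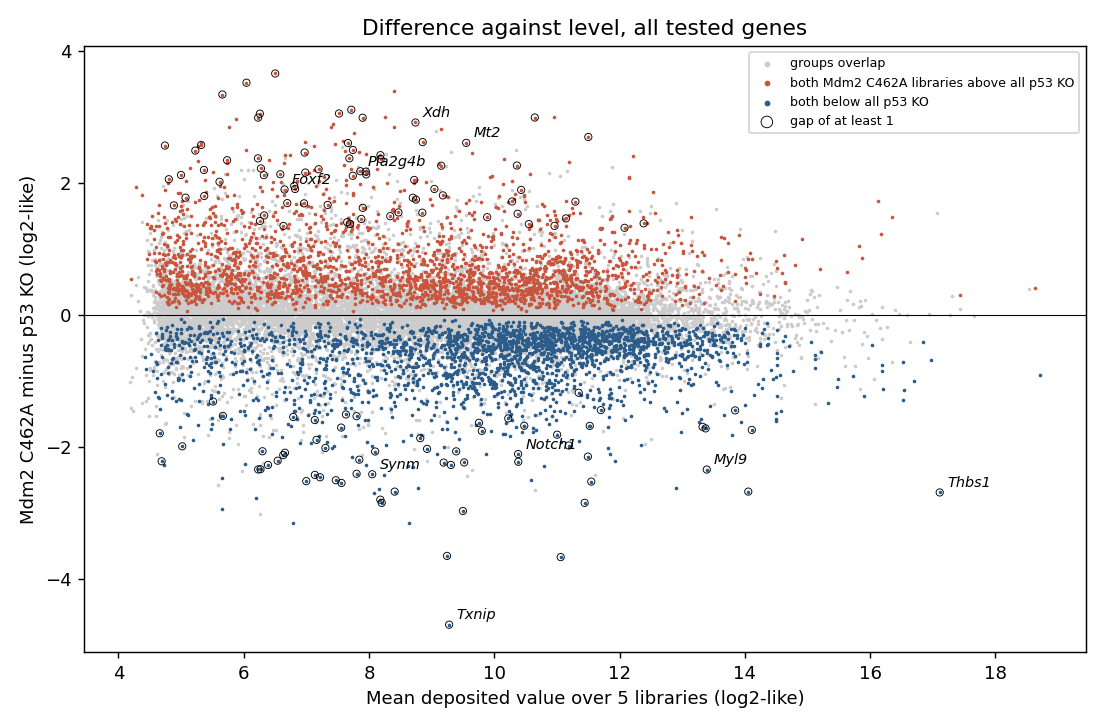
Each point is 1 of 16900 tested genes, with its mean deposited value over the 5 libraries on the x axis and the difference Mdm2 C462A minus p53 KO on the y axis, both log2-like. Colours mark the 2388 higher and 2442 lower separating genes, and rings mark the 135 with a gap of at least 1, with Txnip at -4.69 the lowest.

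Upstream sequences of 5 separating genes are shown because textbook promoter motifs are known for their gene groups. Each line is the 250 bases before the RefSeq start site on the gene's strand, 5′ to 3′, in build GRCm38.p6, matched by symbol. Capitals mark matches on either strand: CCAAT in Txnip, CCAAT and the E box CACGTG in Arrdc4, TGCNCNC in Mt2, the CArG box in Myl9, and CCAAT with the cell-cycle homology region TTTGAA in Cdc20. TGCNCNC is a looser pattern than the metal response element, so a match need not be such an element. No marked matches overlap. The windows are chr3:96557707-96557956 (plus strand) for Txnip, chr7:68749239-68749488 (minus) for Arrdc4, chr8:94172368-94172617 (plus) for Mt2, chr2:156775214-156775463 (plus) for Myl9 and chr4:118437344-118437593 (minus) for Cdc20.
Txnip: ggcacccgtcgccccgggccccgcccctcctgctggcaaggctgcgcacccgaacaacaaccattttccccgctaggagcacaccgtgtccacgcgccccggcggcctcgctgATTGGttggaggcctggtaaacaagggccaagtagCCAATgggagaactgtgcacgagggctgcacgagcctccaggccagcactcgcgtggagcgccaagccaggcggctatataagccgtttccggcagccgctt
Arrdc4: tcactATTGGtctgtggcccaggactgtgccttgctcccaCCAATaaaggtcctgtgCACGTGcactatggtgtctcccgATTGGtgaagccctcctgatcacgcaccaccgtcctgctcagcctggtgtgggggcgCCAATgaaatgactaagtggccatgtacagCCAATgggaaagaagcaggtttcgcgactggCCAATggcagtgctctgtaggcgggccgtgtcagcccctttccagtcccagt
Mt2: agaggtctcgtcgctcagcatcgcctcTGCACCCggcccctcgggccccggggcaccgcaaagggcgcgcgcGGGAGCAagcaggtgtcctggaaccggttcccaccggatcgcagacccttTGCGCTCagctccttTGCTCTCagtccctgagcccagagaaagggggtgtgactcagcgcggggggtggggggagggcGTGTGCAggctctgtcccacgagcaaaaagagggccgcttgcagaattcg
Myl9: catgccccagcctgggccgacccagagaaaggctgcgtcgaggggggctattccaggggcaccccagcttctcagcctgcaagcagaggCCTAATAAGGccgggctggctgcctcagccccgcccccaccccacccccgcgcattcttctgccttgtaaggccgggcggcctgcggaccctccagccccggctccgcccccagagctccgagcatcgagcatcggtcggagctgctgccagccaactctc
Cdc20: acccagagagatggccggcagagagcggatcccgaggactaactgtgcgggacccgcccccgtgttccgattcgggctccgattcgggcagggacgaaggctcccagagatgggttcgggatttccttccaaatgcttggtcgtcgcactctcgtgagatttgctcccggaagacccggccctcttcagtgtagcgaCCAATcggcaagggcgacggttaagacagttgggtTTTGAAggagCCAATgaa
Of 32851 such windows in the table, 33.8% held CCAAT, 16% TTTGAA, 44.4% TGCNCNC, 1.47% a CArG box and 6.02% CACGTG. The window of Arrdc4 held 6 CCAAT matches and that of Mt2 held 5 matches to TGCNCNC. Among windows of the mitosis list, 23 of 31 held CCAAT (74.2%) and 12 of 31 held TTTGAA. The first of these motifs was as frequent in windows of the cholesterol synthesis list, whose genes were on the other side (15 of 19, 78.9%), and was in 21 of 37 windows of the DNA replication list (56.8%). Among windows of the smooth muscle list, 6 of 25 held a CArG box. CACGTG was present in 11.5% of windows of higher genes and 5.7% of windows of lower genes, against 8.1% for all tested genes. These matches are letters in a window, with no measurement of binding.

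Mdm2 itself and its partners come first. Mdm2 transcripts were at 1746, 1994 and 1914 normalized reads in p53 KO and 2033 and 2887 in Mdm2 C462A. The groups barely separated, with replicate 1 of Mdm2 C462A just above the highest p53 KO library, and the difference was 0.36 ± 0.24 (SE, n = 2 against 3, limma adjusted p = 0.647). A single-residue change leaves the transcript in place, so these counts do not check the genotype. Trp53, which encodes p53, still gave 687, 1396 and 1244 reads in p53 KO and 1339 and 1668 in Mdm2 C462A, with the groups overlapping. The libraries labelled p53/Mdm2 KO had 1575 and 2334 reads of Mdm2 and 1603 and 1775 of Trp53. For Mdm2, replicate 1 lay below the p53 KO range and replicate 2 above it, and for Trp53 both lay above it. These counts therefore do not show the loss of either gene that the labels give, and reads summed per gene do not show which part of a gene was read. Mdm4, the RING partner of Mdm2 and itself an inhibitor of p53, was at 668, 394 and 929 in p53 KO and 1025 and 2156 in Mdm2 C462A. Replicate 2 of Mdm2 C462A was the highest, and the difference was 1.22 ± 0.47 (limma adjusted p = 0.462), or 0.69 without that library.

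The widest gap in the table belonged to Txnip, the thioredoxin-interacting protein, an arrestin-domain protein that restrains glucose uptake. It had 3598, 1279 and 2504 normalized reads in p53 KO and 127 and 34.4 in Mdm2 C462A. All p53 KO libraries were far above both Mdm2 C462A libraries, with a gap of 3.14 and a difference of -4.69 ± 0.74 (limma adjusted p = 0.437). Without replicate 1 of p53 KO and replicate 2 of Mdm2 C462A the difference was -3.62. Arrdc4, its closest relative, was at 559.9, 261 and 483 against 80.2 and 48.5, again without overlap, with a difference of -2.41 ± 0.41 (limma adjusted p = 0.437). Mlxip, which encodes a glucose-sensing transcription factor that acts on both genes, was at 2089.6, 2253 and 2029.9 against 1532 and 1669.6. Of the 7 tested genes of this list, 3 (42.9%, beside 14.4% of all tested genes) were lower without overlap and 0 higher (beside 14.1%). The median difference of -0.40 became 0.11 without replicate 2 of Mdm2 C462A. The median of all tested genes was 0.01.

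Many contractile genes were lower. Of 26 tested smooth muscle and actin contractile genes, 13 were lower in both Mdm2 C462A libraries (50%, beside 14.4% of all tested genes) and 0 higher (beside 14.1%), with a median difference of -0.95, or -1.33 without replicate 1 of p53 KO. Myl9, a regulatory light chain of myosin, had 19666, 17741 and 24885 reads in p53 KO and 5275 and 3088 in Mdm2 C462A, so that the lowest p53 KO library was above both mutants. Its difference was -2.34 ± 0.31 (limma adjusted p = 0.410). Synm, which encodes the intermediate filament protein synemin, was at 571, 505 and 427 against 92.2 and 65.3, a difference of -2.41 ± 0.25 (limma adjusted p = 0.30). Tpm2, a tropomyosin of actin filaments, was at 25643, 19311 and 21336 against 8815 and 7336, and the groups did not overlap. Mrvi1, a partner of cyclic GMP signalling in smooth muscle, was at 1235, 323 and 613 against 36.1 and 129, with replicate 1 of Mdm2 C462A the lowest. In bulk RNA, fewer cells of a type and less RNA per cell cannot be told apart.

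**Figure D2:**
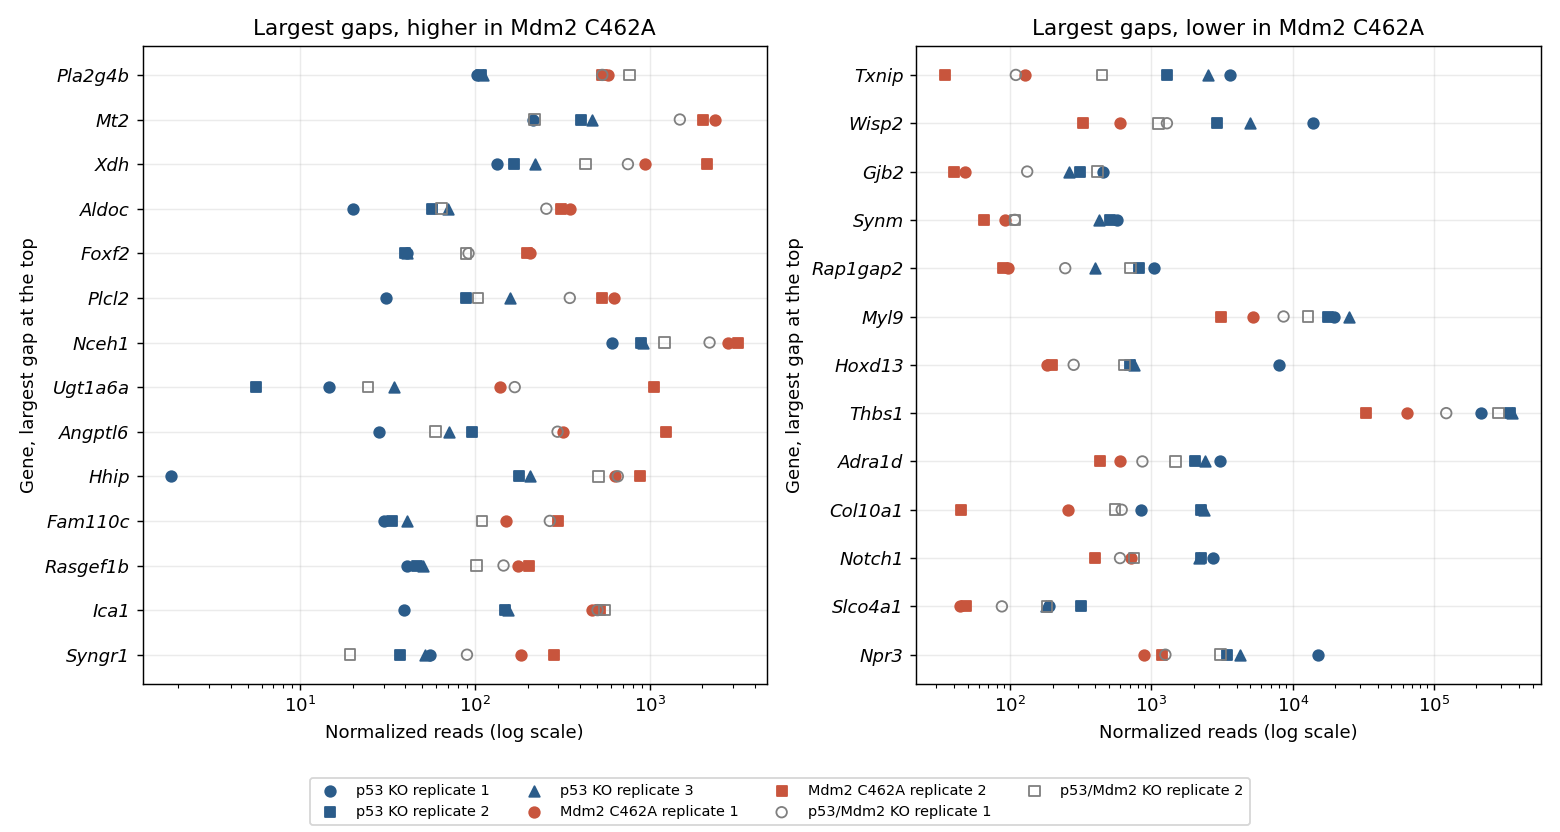
Normalized reads on a log axis for the genes with the largest gaps, 14 on the higher side and 13 on the lower side, with 1 symbol per library. Filled blue symbols are p53 KO, filled red symbols are Mdm2 C462A and open grey symbols are p53/Mdm2 KO, and red and blue never overlap within a row.

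Matrix and serum-response genes were more often lower than higher. Of 60 tested extracellular matrix genes, 18 (30%, beside 14.4% of all tested genes) were lower without overlap and 1 (1.67%, beside 14.1%) higher. The median of -0.67 became -0.27 without replicate 2 of Mdm2 C462A. Many matrix genes were abundant. Of all tested genes, 24.1% were lower at a mean of 10000 normalized reads or more, and 19.8% from 1000 to 10000. Thbs1, thrombospondin, a secreted adhesion protein, was among the separating genes with the most reads, at 214699, 344960.0 and 357812 in p53 KO and 64698 and 33015 in Mdm2 C462A. Its difference was -2.69 ± 0.53 (limma adjusted p = 0.437). Col10a1, a short-chain collagen, was at 843, 2258 and 2343 against 257 and 45.0, with replicate 2 of Mdm2 C462A well under all others. Mfap5, a microfibril protein, was at 1439.7, 836 and 1325 against 169 and 299.9, and Col5a3, a fibrillar collagen chain, at 5333, 3962 and 3069.7 against 1245 and 811. Both had every p53 KO library above every mutant library. Col1a1, the main fibroblast collagen, separated narrowly at 457995, 532807 and 689145 against 384424 and 224903.

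Among 29 tested CCN and serum response genes, 12 (41.4%, beside 14.4% of all tested genes) were lower without overlap and 1 (3.45%, beside 14.1%) higher. The median was -0.66. Wisp2, a secreted CCN-family protein, had 13971, 2932 and 4955 normalized reads in p53 KO and 601 and 326 in Mdm2 C462A, a difference of -3.67 ± 0.64 (limma adjusted p = 0.437). Without replicate 1 of p53 KO it was -3.05, and without replicate 2 of Mdm2 C462A as well it was -2.62. The immediate-early factors Egr1 and Egr3 were high in replicate 1 of p53 KO. Egr1 was at 26284, 4490.4 and 3106 against 1785 and 1311, with a difference of -2.21 that became -1.28 without that library. Egr3 was at 1269.7, 240.4 and 204 against 88.2 and 59.97, and its difference became -1.39. The groups separated for both, which leaving out a library cannot undo. Gjb2, a gap junction connexin, had 456, 314 and 261 against 48.1 and 39.7, and Adra1d, an alpha-1 adrenergic receptor, had 3062, 2024 and 2379 against 600.4 and 431. Npr3, the clearance receptor for natriuretic peptides, was at 15049, 3406 and 4221 against 891 and 1184. Rap1gap2, which switches off the small GTPase Rap1, was at 1034, 809 and 396 against 96.2 and 88.2, and Slco4a1, an organic anion transporter, at 189, 318 and 180.1 against 44.1 and 48.5. All 5 had every mutant library under every p53 KO library.

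The list of growth factor ligands and receptors was balanced, with 24 of 47 tested genes above and 23 below the p53 KO mean and a median of 0.01. Of these genes 9 (19.1%) were lower and 2 (4.26%) higher without overlap, beside 14.4% and 14.1% of all tested genes. Those with the widest gaps included 3 genes of Notch signalling. Notch1, a receptor cleaved on contact with a neighbour's ligand, was at 2712, 2258 and 2172 reads in p53 KO and 719 and 396 in Mdm2 C462A. The p53 KO libraries lay close together and far above both mutants, with a difference of -2.11 ± 0.28 (limma adjusted p = 0.410). Jag1, a Notch ligand, had 3359, 4201 and 7019 against 1076 and 1912, and Hes1, a repressor induced by Notch, had 1899, 1759 and 1969.5 against 1157 and 590.0. Ereg, a ligand of the epidermal growth factor receptor, was at 5475, 1081 and 742 against 413 and 328, with replicate 1 of p53 KO several times the others.

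Polycomb genes and Hox genes were described because of the title of the series. Of 12 tested PRC2 subunits, 4 (33.3%, beside 14.4% of all tested genes) were lower and 0 higher without overlap, with a median of -0.12. Ezh2, the methyltransferase, was at 2171, 1979.8 and 1761 in p53 KO and 1444 and 1066 in Mdm2 C462A, a difference of -0.65 ± 0.24 (limma adjusted p = 0.452). Eed, which binds the methyl mark, was at 1614, 1468 and 1398 against 1205 and 1136, and the accessory subunit Phf19 at 1196, 589 and 663 against 500.2 and 129.7. In all 3 the mutants lay below every p53 KO library. Of 22 tested PRC1 subunits 4 (18.2%) were lower and 2 (9.09%) higher, near the 14.4% and 14.1% of all tested genes. Of 35 tested Hox genes 7 (20%) were lower and 0 higher, beside 14.4% and 14.1% of all tested genes. The lower share was thus near that of all tested genes. All 7 were posterior genes of the Hoxa and Hoxd clusters. All 4 tested genes of paralogue groups 9 to 13 in Hoxa were lower (median -2.13), and 3 of 5 in Hoxd (median -2.01), while no gene of the Hoxb or Hoxc cluster and none of paralogue groups 1 to 8 separated. Hoxd13, which patterns digits, was at 7985, 704 and 753 reads in p53 KO and 183 and 198 in Mdm2 C462A. Replicate 1 of p53 KO was far above the other p53 KO libraries, and without it the difference of -2.97 ± 1.06 (limma adjusted p = 0.452) became -1.83. Hoxa10, which patterns the limb and reproductive tract, was at 2213, 756 and 720.5 against 135 and 323, and Hoxd10 at 695, 157 and 147 against 55.1 and 44.1. Without replicate 1 of p53 KO the difference of Hoxa10 went from -2.24 to -1.72 and that of Hoxd10 from -2.01 to -1.33. Hoxd11 went from -2.12 to -1.28 and Hoxa13 from -2.34 to -1.32. Over all Hox genes replicate 1 of p53 KO was otherwise low: the medians relative to the p53 KO mean were -1.20, 0.83 and 0.56 in p53 KO, and the list's difference of -0.12 became -1.08 without it.

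Cell division genes were lower in both mutant libraries. All 35 tested mitosis genes were lower in both Mdm2 C462A libraries than in every p53 KO library, beside 14.4% of all tested genes, with a median of -1.26. Without replicate 2 of Mdm2 C462A the median was -0.79, and without that library and replicate 1 of p53 KO it was -0.64. Plk1, the polo-like kinase of mitotic entry, was at 3546, 3805 and 3625 in p53 KO and 1954 and 896 in Mdm2 C462A (difference -1.45 ± 0.32, limma adjusted p = 0.437). Cdc20, the activator of the anaphase-promoting complex, was at 5558, 4451 and 4013 against 2354 and 1568 (difference -1.26 ± 0.25, limma adjusted p = 0.437). The kinesins Kif20a and Kif23, which build the midzone of the dividing cell, were at 8528, 6347 and 6653 against 3691 and 1606 and at 4417, 3709 and 3791 against 2180.1 and 1051. In each of these genes replicate 2 of Mdm2 C462A was the lowest of the 5 libraries.

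DNA replication genes were lower too. Of 41 tested, 31 (75.6%, beside 14.4% of all tested genes) were lower without overlap and 0 higher (beside 14.1%). All 41 had a lower mean, with a median of -0.83, or -0.22 without both libraries that stood apart. The median levels relative to the p53 KO mean were 0.66, -0.20 and -0.47 in p53 KO and -0.59 and -1.16 in Mdm2 C462A. Rrm2, the regulated subunit of ribonucleotide reductase, was at 8257, 5831 and 5108 against 2826 and 826, and its partner Rrm1 at 11237, 11192 and 11355 against 6923 and 6029. Ccne1 and Ccne2, the E-type cyclins that start S phase, were at 2180.5, 2259 and 2269 against 1184 and 391 and 1834, 1195 and 1022 against 530.2 and 296. All 4 separated the groups.

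**Figure D3:**
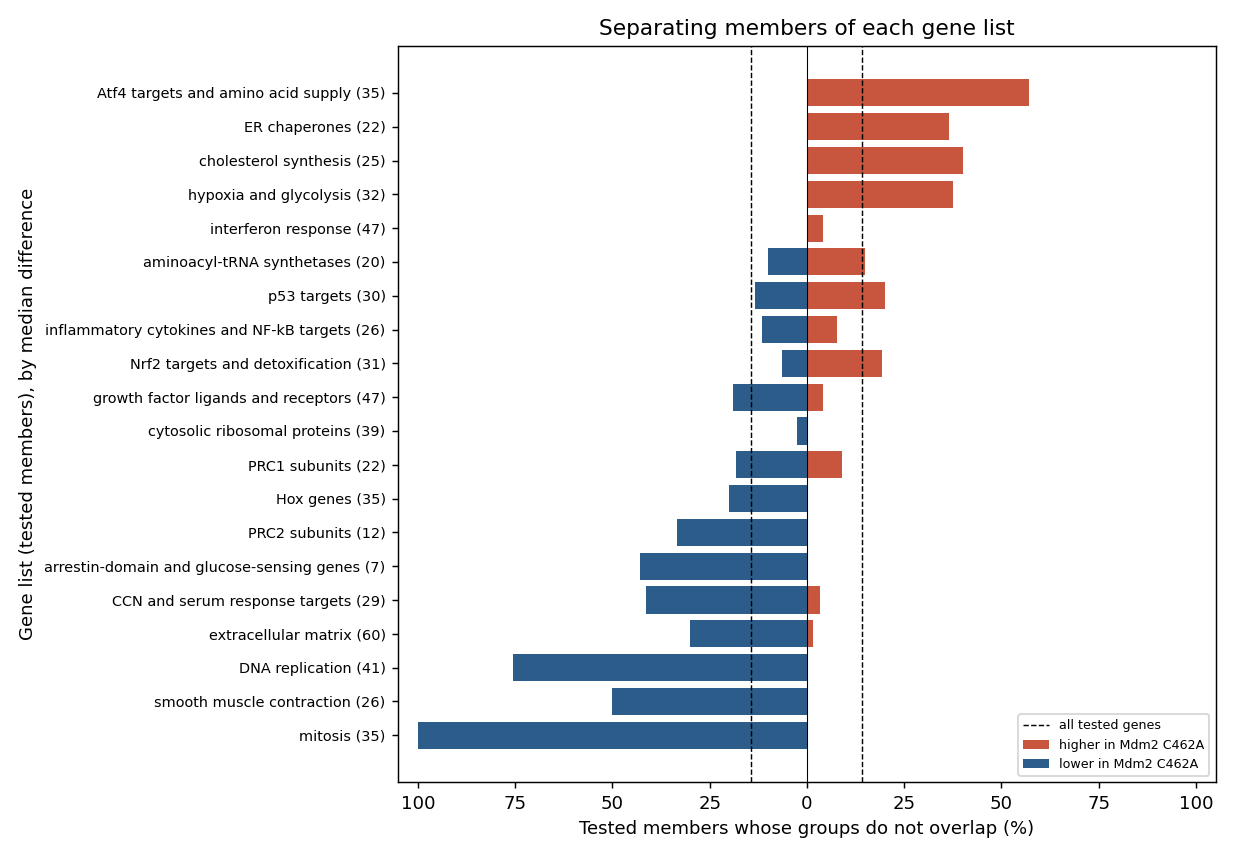
Bars show, for each gene list, the percentage of tested members (number in brackets) for which both Mdm2 C462A libraries lay above (red, right) or below (blue, left) all p53 KO libraries. Dashed lines mark 14.1% and 14.4%, the shares of all tested genes, and the mitosis bar reaches 100% on the lower side.

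On the higher side, the widest gap among named genes with a mean of at least 100 normalized reads in the mutant belonged to Pla2g4b, a cytosolic phospholipase whose gene overlaps Jmjd7, so that reads of both cannot be told apart. It was at 103, 109 and 111 in p53 KO and 580.4 and 530.1 in Mdm2 C462A, with little spread within a group, and the difference was 2.18 ± 0.24 (limma adjusted p = 0.30). Foxf2, a forkhead factor of mesenchyme, varied little within either group, at 40.9, 39.9 and 41.0 against 205 and 198. Its difference of 1.90 ± 0.22 (limma adjusted p = 0.317) was 1.93 without both libraries that stood apart. Hhip, a decoy receptor for Hedgehog ligands, was at 1.82, 178 and 207 against 631 and 881. Replicate 1 of p53 KO was under the limit for 3 reads, and without it the difference of 3.11 became 1.85. Plcl2, a catalytically inactive relative of phospholipase C, was at 30.9, 89.1 and 159 against 624 and 536. Nceh1, a hydrolase of neutral cholesterol esters, was at 612, 893 and 918 against 2822 and 3212. Angptl6, a secreted angiopoietin-like protein, was at 28.2, 96.5 and 71.2 against 318 and 1243, with replicate 2 of Mdm2 C462A highest. The values for Fam110c were 30.0, 33.4 and 41.0 against 150.4 and 298, for Rasgef1b, an exchange factor for Ras-family GTPases, 40.9, 46.4 and 50.7 against 176 and 204, for Ica1 39.1, 149 and 154 against 470.1 and 519, and for the vesicle protein gene Syngr1 55.4, 37.1 and 51.8 against 184 and 285. Every mutant library was above every p53 KO library in each.

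Several metal, redox and detoxification genes had wide gaps, while their list as a whole was mixed. Mt2, a metallothionein that binds zinc and copper, had 214, 403 and 468 in p53 KO and 2379.6 and 2032 in Mdm2 C462A, with a difference of 2.61 ± 0.75 (limma adjusted p = 0.437). Xdh, the xanthine dehydrogenase of purine breakdown, was at 134, 168 and 220.0 against 943 and 2127 (difference 2.92 ± 0.43, limma adjusted p = 0.437). Hmox1, the heme oxygenase, was at 4324, 2522 and 2303 against 8258 and 9277, and Gsta4, a glutathione transferase, at 267, 178 and 267 against 703 and 1026. Ugt1a6a, a glucuronosyltransferase, was at 14.5, 5.57 and 34.5 against 139 and 1062. It shares exons with Ugt1a7c and other transcripts of its locus, so its count is uncertain, and its difference of 3.66 became 2.28 without replicate 2 of Mdm2 C462A. Of 31 tested Nrf2 targets and detoxification genes, 6 (19.4%) were higher and 2 (6.45%) lower without overlap, beside 14.1% and 14.4% of all tested genes, and the median was 0.01.

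Genes of the Atf4 and ER chaperone lists were higher, chiefly in 1 library. Of 35 tested Atf4 targets and amino acid supply genes, 20 (57.1%, beside 14.1% of all tested genes) were higher without overlap and 0 lower, with a median of 1.25. Without replicate 2 of Mdm2 C462A the median was 0.55. Ddit3, the stress factor CHOP, was at 1052, 1741 and 1348 in p53 KO and 3686 and 21317 in Mdm2 C462A, and its difference of 2.70 ± 0.74 (limma adjusted p = 0.437) became 1.43 without that library. Trib3, a pseudokinase induced by stress, was at 161, 1585 and 1156 against 3239.6 and 9460.0, and Slc6a9, a glycine transporter, at 712, 1878 and 1308 against 3193 and 11579. Fgf21, a secreted stress hormone, was at 7.27, 14.9 and 29.1 against 77.2 and 744. In all 4, replicate 1 of Mdm2 C462A was also above every p53 KO library. Of 22 ER chaperones, 8 (36.4%) were higher without overlap and 0 lower, beside 14.1% and 14.4% of all tested genes. The median of 1.23 became 0.18 without replicate 2 of Mdm2 C462A. Hspa5, the main chaperone of the endoplasmic reticulum, had 41535, 54603 and 37776 against 59702 and 358998, and Hsp90b1 had 51371, 64076 and 51799 against 73926 and 322577. The difference of Hspa5 was 1.73, or 0.44 without that library. This is the library with the high mesothelial markers, whose part in these values was not tested. Of 20 aminoacyl-tRNA synthetases 3 (15%) were higher and 2 (10%) lower without overlap, near the 14.1% and 14.4% of all tested genes, and the median of 0.34 became -0.03 without both libraries that stood apart.

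Sterol and oxygen-response genes were also on the higher side. Of 25 tested cholesterol synthesis genes, 10 (40%, beside 14.1% of all tested genes) were higher without overlap and 0 lower (beside 14.4%). The median of 0.89 was 0.40 without replicate 1 of p53 KO and 1.39 without replicate 2 of Mdm2 C462A. Insig1, which holds sterol sensors in the endoplasmic reticulum, was at 4469, 4910.0 and 5444 in p53 KO and 14819 and 9442 in Mdm2 C462A (difference 1.26 ± 0.41, limma adjusted p = 0.437). Mvd and Ebp, enzymes of the pathway, were at 861, 1512 and 1500.3 against 4582 and 2561 and 987, 1067 and 1293 against 2413 and 2113. In these 3 genes replicate 1 of Mdm2 C462A was the highest of the 5 libraries. Of 32 hypoxia and glycolysis genes, 12 (37.5%) were higher and 0 lower without overlap, beside 14.1% and 14.4% of all tested genes (median 0.60). Aldoc, an aldolase of glycolysis, was at 20, 56.6 and 70.1 against 349 and 310.5, and Bnip3, a mitophagy receptor, at 622, 595 and 605 against 1948 and 1539.9. Pdk1, which blocks pyruvate entry into mitochondria, was at 402, 609.8 and 609 against 1211 and 1446. In these 3 both mutants were above every p53 KO library.

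**Figure D4:**
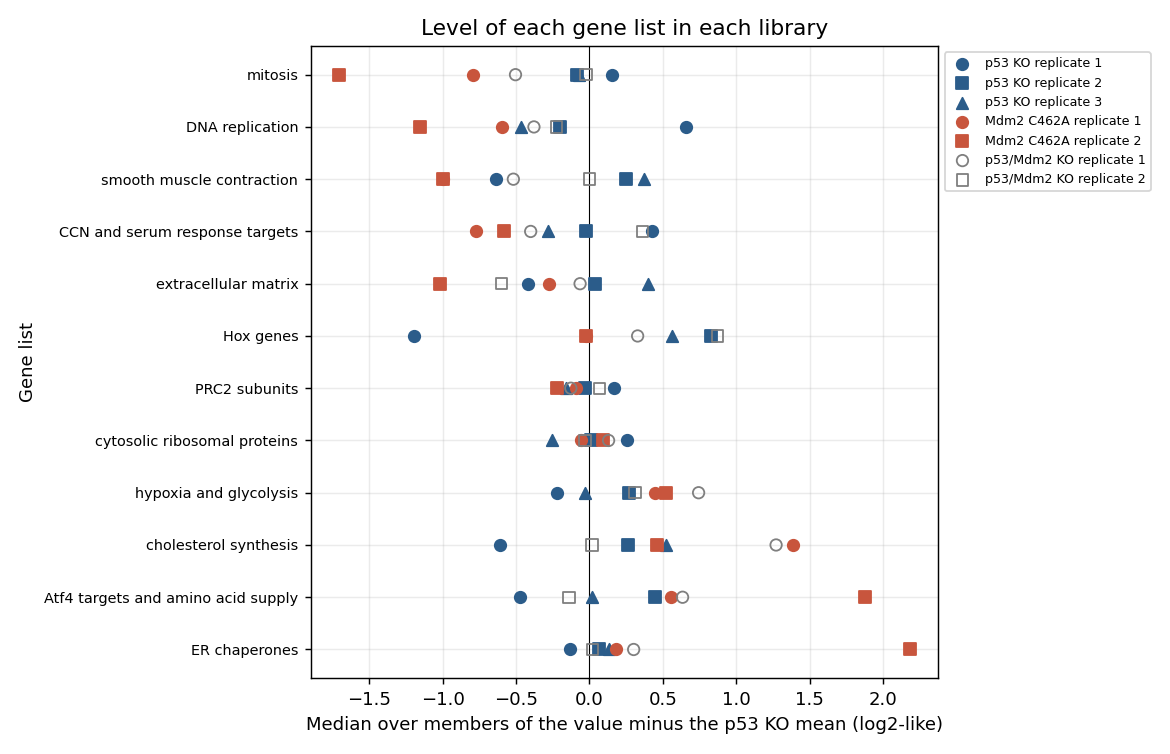
For 12 gene lists, each symbol gives 1 library's median over members of the deposited value minus the p53 KO mean (log2-like scale). For mitosis both Mdm2 C462A libraries lie left of all p53 KO libraries, while for ER chaperones replicate 2 of Mdm2 C462A stands alone on the right.

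Genes known as p53 targets were mixed in these p53-null cells: 6 of 30 tested (20%) were higher and 4 (13.3%) lower without overlap, near the 14.1% and 14.4% of all tested genes, with a median of 0.15. Phlda3, an inhibitor of Akt signalling, was lower at 2009.6, 1656 and 1827 in p53 KO and 646 and 562 in Mdm2 C462A, with little spread (difference -1.57 ± 0.17, limma adjusted p = 0.30). Gadd45a and Trp53inp1, which answer stress, were higher, at 203, 582 and 472 against 1077 and 4456 and 188, 219 and 485 against 867 and 2297. Of 47 interferon response genes 2 (4.26%) were higher and 0 lower without overlap, though 40 lay above the p53 KO mean and 7 below. The median of 0.37 became 0.73 without replicate 1 of p53 KO and ran from 0.11 to 1.11 over the alternative settings. Of 26 inflammatory genes 2 (7.69%) were higher and 3 (11.5%) lower. The separating shares of both lists were under the 14.1% and 14.4% of all tested genes. Cxcl1, a neutrophil chemokine, had the widest gap of the inflammatory genes, at 521, 185 and 210.3 against 21.0 and 54.7. Of 39 cytosolic ribosomal protein genes 1 was lower, and the median was 0.00.

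The members nearest the limit of a wide gap were Tmem144 (gap 1.020) inside and Pdzd7 (0.985) outside on the higher side, and Hoxa13 (1.002) inside and Pstpip2 (0.996) outside on the lower side.

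The libraries labelled p53/Mdm2 KO are set beside the mutant for the leading members. Both comparisons would share the p53 KO libraries, so only values are given, for replicates 1 and 2. Txnip was at 109 and 447 and Notch1 at 598 and 749, with Synm at 108 and 108. For Txnip, Notch1 and Synm both libraries were below all 3 p53 KO libraries. Myl9 was at 8611 and 12821 and Thbs1 at 122192 and 285876, where replicate 2 of p53/Mdm2 KO lay above the lowest p53 KO library for Thbs1 and under it for Myl9. Pla2g4b was at 535 and 767 and Foxf2 at 91.9 and 88.8, all above p53 KO. Mt2 was at 1488 and 219, and Plk1 at 2378 and 2853, below every p53 KO library. Mt2 in replicate 2 of p53/Mdm2 KO was within the p53 KO range and in replicate 1 above it.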

How the data were processed

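Total RNA of 7 libraries was sequenced as single reads of 50 bases, per the labels' protocols. The submitters' processing notes list Bowtie2 2.1.0, CASAVA 1.8.2 and DESeq 1.14.0, and the mm9 build, giving no role to any. How reads were counted, the annotation and strand use: not given in the sources used here. The deposited values are log2-like, variance-stabilized by the authors as read from the values: a gene without reads stands at 3.36. Inverting that form gave normalized reads, and whole reads within 0.05 for 100% of values. Groups came from the titles. The deposited values were fitted with limma 3.58.1 (R 4.3.3): group means, mean-variance trend, all 7 libraries, 4 residual degrees of freedom, two-sided, Benjamini-Hochberg over 16900 genes with a mean of at least 10 normalized reads. This was tested on simulated data. No count model was run on the recovered reads; limma's voom on them was an alternative. The members and gene lists were chosen with earlier results of these data known. Named genes were Mdm2, Trp53 and Mdm4, the 14 largest gaps per side whose higher group averaged 100 normalized reads or more, up to 4 separating members per list, the 4 most abundant per side, and those nearest a gap of 1; the text gives a part of them. A gene the rule named is not reported here, though list counts include it. Promoter windows were found for 10034 of 16900 tested genes. Alternatives were pseudocounts, filters, scaling, variance models, weights, a replicate block and leaving out libraries.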

Additional observations from a re-analysis of the deposited data

How the results depend on the processing

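No gene passed the adjusted threshold under any of 17 alternatives. Named separating genes also kept their sign. Their ordering fixes this in advance wherever libraries are left out or only the pseudocount, filter or variance model changes, so it adds no support there. At an unadjusted p under 0.05, leaving out 1 library gave 365 to 1106 higher and 273 to 1187 lower genes. The lowest counts came without replicate 2 of Mdm2 C462A, and without replicate 2 of p53 KO there were 557 higher genes. Separating genes numbered 3047 to 5078 higher and 3144 to 4959 lower with 1 library left out, and 6487 and 6416 without replicate 1 of p53 KO and replicate 2 of Mdm2 C462A, since fewer libraries have to be ordered. Gaps of at least 1 numbered 115 to 661 higher and 91 to 560 lower with 1 library left out, 386 and 327 without both, and 125 and 95 on log2 of recovered reads plus a pseudocount of 1, a scale that compresses low genes less. Where 1 Mdm2 C462A library was left out, the other was assumed to vary like the other groups. The medians of the aminoacyl-tRNA synthetase, Nrf2, p53 target, PRC1, Hox, inflammatory, arrestin-domain, growth factor and ribosomal lists changed sign under at least 1 alternative. The replicate numbers shared by both groups did not pair the libraries by label, and the deviations of same-numbered libraries correlated at -0.16 and -0.05 across genes. With the number as a replicate block, 670 genes were higher and 816 lower at an unadjusted p under 0.05 and 0 passed the adjusted threshold. The design of 2 against 3 libraries and the spread within groups, more than depth, limit the precision for genes of more than a few reads.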

Other observations

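Several marker genes of other cell types varied widely between libraries of 1 group. Fabp4, a fatty acid carrier of adipocytes, was at 4328, 174 and 161 normalized reads in p53 KO replicates 1 to 3 and at 141 and 97.0 in Mdm2 C462A replicates 1 and 2. It separated the groups by a gap of 0.16, and replicate 1 of p53 KO was far above all others. Nes, an intermediate filament gene of progenitor cells, was at 1312, 11178 and 4877 against 2349.5 and 2276, and the groups overlapped. Tubb3, a tubulin known from neurons, was at 18.2, 1229 and 717 against 388 and 685, lowest in replicate 1 of p53 KO. The 12 cartilage and bone markers summed to 14613 to 19619 in p53 KO and 38802 and 15370.1 in Mdm2 C462A, highest in replicate 1 of the mutant. Most of that sum was Spp1, a secreted bone matrix protein also made by other cells, at 9958, 15944 and 12913 against 34199 and 13546. Acan and Comp, of cartilage matrix, went the other way, at 701, 109.5 and 111 against 19.04 and 79.4 and 115, 60.3 and 156 against 19.04 and 40.6. Of 8 tested markers of this list, 2 (25%) were higher without overlap and 2 (25%) lower, beside 14.1% and 14.4% of all tested genes. The higher genes had few reads. Alpl was at 1.82, 12.1 and 21.6 against 25.1 and 84.7, and Chad at 8.18, 14.9 and 12.9 against 27.1 and 15.9.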
